A study of Homo sapiens with 3 samples.

Results

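The arginine and polyamine genes of H82R cells are described here as 10 genes, selected by symbol from a table of 27574 genes: ASS1, ASL, ARG2, ODC1, AMD1, SRM, SMS, SAT1, OAZ1 and AZIN1. All 10 were found. They were chosen with their counts in all 3 libraries known, so their levels and their spread between libraries are given as a description. H82 is a human small cell lung cancer cell line in wide use. The 3 RNA sequencing libraries (replicates 1, 2 and 3) form 1 group, labelled H82R, and what R stands for is not stated in the labels. All 3 carry the treatment label etoposide plus cisplatin, and the cells were grown in RPMI1640 medium with fetal bovine serum. No untreated library and none labelled H82 alone was analysed here, so whether any level below reflects the drugs cannot be told. Whether separate cultures gave the 3 libraries is not stated in the labels, and the spread between them may be technical.

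Arginine is taken up from the medium or made from citrulline by argininosuccinate synthase and argininosuccinate lyase, and arginase splits it into urea and ornithine. Ornithine decarboxylase turns ornithine into putrescine. Spermidine synthase and spermine synthase then add aminopropyl groups that come from decarboxylated S-adenosylmethionine. Polyamines bind nucleic acids and are needed for growth, and ornithine decarboxylase is held in check by antizyme, a protein made in larger amounts when polyamines are plentiful. Many tumours silence ASS1 and then depend on arginine from outside, and ODC1 is a classic target of MYC proteins.

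Stretches of DNA shown here are the 200 bases before the RefSeq start site (GRCh38.p14) of ASS1, whose level differed most between the libraries, and of ODC1, AMD1 and SRM, which were all lowest in replicate 2. ARG2, which like ASS1 was highest in replicate 2, is shown for comparison. Capitals mark an E-box (CACGTG, the site bound by MYC proteins), a cAMP response element (TGACGTCA) or TATAA, the core of a TATA box, on either strand. SMS and ASL were also lowest in replicate 2, and SAT1 and OAZ1 also highest. Their windows are not shown and held none of the motifs marked by capitals. The windows shown therefore do not represent all genes of either direction, and a link of motif to direction was not tested. ASS1 is read from chr9:130444761-130444960 on the plus strand, ARG2 from chr14:67619720-67619919 on the plus strand, ODC1 from chr2:10448328-10448527 on the minus strand, AMD1 from chr6:110874584-110874783 on the plus strand and SRM from chr1:11060019-11060218 on the minus strand.
ASS1: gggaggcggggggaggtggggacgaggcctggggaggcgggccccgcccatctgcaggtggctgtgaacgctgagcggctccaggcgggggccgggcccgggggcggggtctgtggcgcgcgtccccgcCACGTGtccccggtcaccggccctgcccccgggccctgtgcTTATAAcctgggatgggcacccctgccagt
ARG2: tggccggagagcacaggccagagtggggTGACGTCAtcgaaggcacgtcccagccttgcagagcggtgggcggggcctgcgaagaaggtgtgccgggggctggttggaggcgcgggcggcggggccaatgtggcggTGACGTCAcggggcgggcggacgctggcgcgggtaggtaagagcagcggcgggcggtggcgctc
ODC1: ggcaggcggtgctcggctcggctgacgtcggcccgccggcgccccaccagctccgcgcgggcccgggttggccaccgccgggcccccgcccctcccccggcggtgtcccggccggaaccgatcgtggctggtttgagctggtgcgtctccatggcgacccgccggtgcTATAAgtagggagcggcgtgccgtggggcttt
AMD1: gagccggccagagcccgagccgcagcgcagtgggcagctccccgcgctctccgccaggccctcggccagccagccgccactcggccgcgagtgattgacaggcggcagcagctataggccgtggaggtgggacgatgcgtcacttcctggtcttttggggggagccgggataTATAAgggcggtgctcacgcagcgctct
SRM: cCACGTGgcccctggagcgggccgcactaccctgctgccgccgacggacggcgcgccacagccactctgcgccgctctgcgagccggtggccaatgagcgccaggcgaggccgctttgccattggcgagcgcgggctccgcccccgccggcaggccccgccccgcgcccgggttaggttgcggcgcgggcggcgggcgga

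Start sites were given for 9 of the 10 genes. An E-box lay in 2 of these 9 windows, 71 bases before the start of ASS1 and 199 bases before that of SRM, against 5.49% of all 35116 windows of this length. A cAMP response element lay in 1 window, that of ARG2, which held 2, against 1.57% of all windows. The C/EBP-ATF composite element (TGATGNAA) lay in none of the 9 and in 2.57% of all windows. TATAA lay in 3 of the 9, those of ASS1, ODC1 and AMD1, and in 15.4% of all windows. The GC box (GGGCGG) lay in 8 of the 9, all but SAT1, and in 40.1% of all windows. The 9 windows were 66.5% to 79.5% G and C. Both strands were searched, overlapping matches were counted, and no match here is evidence that a factor binds. Sequence after the start or farther before it was not searched. A window without a motif, such as that of ODC1 without an E-box, does not show that the gene lacks it. The 35116 windows were not limited to detected genes or matched to the 9 in G and C, and enrichment was not tested.

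Libraries held 25013265, 42610181 and 23868201 counts in replicates 1, 2 and 3. A gene was called detected with at least 10 counts in every library, which 53% of all genes reached, and all 10 genes reached it. CPM are counts scaled to a common library size, and CPM per kb divides them by the merged exon length of the gene, so that genes can be set beside each other. Replicate 2, the deepest library, stood apart: of 11744 genes with a mean of at least 100 counts, 193 lay 2-fold or more apart between replicates 2 and 1 and 204 between replicates 2 and 3, but 69 between replicates 3 and 1. The neuroendocrine markers SYP, ENO2, UCHL1, NEUROD1 and NCAM1 were all detected, with a summed level of 1214 to 1245 CPM. Markers of fibroblasts, endothelium and airway epithelium summed to 0.121 to 1.54 CPM in any library. Those of leukocytes summed to 26.5 to 35.1 CPM, nearly all from CD68 and CD3E, while PTPRC, which defines leukocytes, stood at 0.235 to 0.291 CPM. Bulk counts cannot tell fewer expressing cells from less RNA per cell.

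The synthases, ornithine decarboxylase and its regulators were abundant, while AMD1, SAT1 and the arginine enzymes stood lower. SMS, SRM, ODC1, OAZ1 and AZIN1 averaged 40 to 89.7 CPM per kb, above 93.8% to 97.9% of the detected genes. ASL and SAT1 lay below the median detected gene of 5.59 CPM per kb, at 1.53 ± 0.0482 and 4.03 ± 0.765 CPM per kb (SD, n = 3). Of the 10 genes, 6 lay in the top 25% of detected genes per kb, a class set by construction. The median of the 10 was 28.4 CPM per kb. This is a description of genes picked by name.

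**Figure D1:**
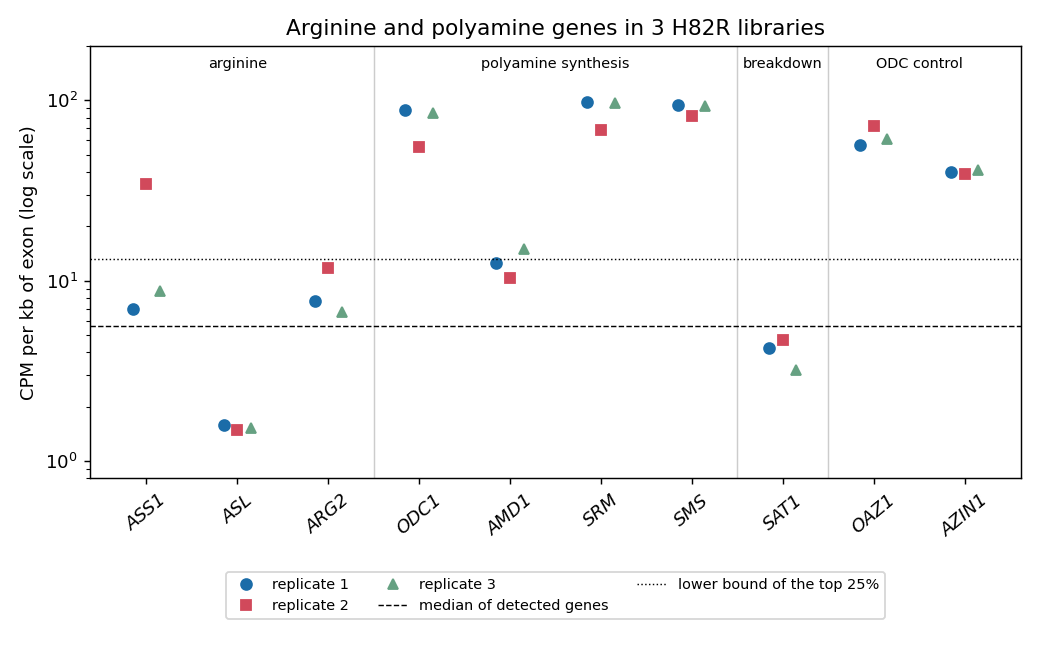
Level of each of the 10 genes in each library, in CPM per kb of exon on a log axis, with the genes ordered by role; lines mark the median detected gene (5.59) and the lower bound of the top 25% (13.2). ASS1 in replicate 2 lies above the upper line, and ASS1 in replicates 1 and 3 lies between the lines.

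ASS1, which encodes argininosuccinate synthase, the enzyme that joins citrulline and aspartate, had the widest range of the 10. It held 528, 4462 and 638 counts, or 21.2, 105 and 26.5 CPM, in replicates 1, 2 and 3. Replicate 2 was thus 4.93 times replicate 1 and 3.95 times replicate 3, while replicate 3 was 1.25 times replicate 1. The mean of 50.9 ± 46.8 CPM (SD, n = 3) therefore describes no library well. In CPM per kb it was 16.7 over all 3 libraries and 7.84 without replicate 2, which takes ASS1 out of the top 25%. Among the 11744 genes with a mean of at least 100 counts, 6 had a wider range between libraries than ASS1. Those 6 reached at most 14.8 CPM in any library. A highest library at least 4 times the lowest was found for 0.162% of these genes. ASS1 lies on chromosome 9 from 130444929 to 130501274 (GRCh38). In the annotation 11 pseudogenes are named after it, against 4 for AMD1, 2 for SRM and 1 each for ODC1 and ASL, and how the authors counted reads shared with such copies is not given.

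ASL, which encodes argininosuccinate lyase, the next enzyme, was low and even. It held 125, 201 and 117 counts, or 5.03, 4.72 and 4.87 CPM. Its highest library was 1.07 times the lowest, so it did not share the range of ASS1. Per kb of exon, the ratio of ASS1 to ASL was 4.42 in replicate 1 with an exact binomial 95% interval from 3.63 to 5.42. Replicate 2 gave 23.3, with bounds of 20.2 and 26.9, and replicate 3 gave 5.71, with bounds of 4.68 and 7.02. The intervals of replicates 1 and 3 overlap each other, and neither overlaps that of replicate 2. The count of ASL is uncertain, because another annotated gene overlaps it in the same orientation. Such an overlap is also annotated for ODC1 and OAZ1.

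ARG2, the mitochondrial arginase, was also highest in replicate 2. It held 464, 1207 and 389 counts, or 18.7, 28.3 and 16.2 CPM. Replicate 2 was 1.52 times replicate 1 and 1.75 times replicate 3. ARG2 lay at 8.71 ± 2.66 CPM per kb, above 63.2% of detected genes. The span of VTI1B overlaps that of ARG2 on the other strand. Whether their reads were told apart where they overlap is unknown, because no strand setting is stated for the counting.

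ODC1 encodes ornithine decarboxylase, the first and rate-limiting enzyme of polyamine synthesis, and was lowest in replicate 2. It held 6496, 6968 and 6071 counts, or 261, 164 and 253 CPM, although replicate 2 was the deepest library. Replicate 2 was 0.626 times replicate 1 and 0.648 times replicate 3, while replicate 3 was 0.966 times replicate 1. ODC1 lies on chromosome 2 from 10439968 to 10448504 (GRCh38). The range of ODC1, with the highest library 1.60 times the lowest, was wider than that of 90.1% of the 11744 genes.

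AMD1 encodes S-adenosylmethionine decarboxylase, which supplies the aminopropyl groups. It stood at 88.3, 72.2 and 105 CPM in replicates 1, 2 and 3, or 12.6 ± 2.32 CPM per kb (SD, n = 3). Here replicate 2 was again the lowest, but replicate 3 also lay above replicate 1, by 1.19 times. SRM, the spermidine synthase gene, stood at 186, 130 and 183 CPM, with replicate 2 at 0.699 times replicate 1 and 0.712 times replicate 3. Spermine synthase, encoded by SMS, was more even, at 204, 177 and 201 CPM. All 4 synthesis genes were thus lowest in replicate 2, by margins that ran from 0.867 of replicate 1 for SMS to 0.626 for ODC1.

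The ratio of SRM to SMS per kb was 1.04, 0.837 and 1.03 in replicates 1, 2 and 3, near equality in all libraries. AMD1 stood well below the other synthesis genes, at 0.143, 0.186 and 0.175 times ODC1 and at 0.128, 0.150 and 0.155 times SRM. The size of this gap rests on the length of 7027 bases that all annotated exons of AMD1 cover together. With the length of its principal transcript (3438 bases) the geometric mean of AMD1 to ODC1 was 0.305, and with coding length 0.539.

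SAT1 encodes spermidine/spermine acetyltransferase, the enzyme that marks polyamines for breakdown and export. It was low, with 264, 496 and 191 counts, or 10.6, 11.6 and 7.95 CPM. Replicate 3 stood lowest here, and replicates 1 and 2 lay close together. Per kb, SAT1 was 0.0483, 0.0846 and 0.0374 times ODC1 and 0.0451, 0.0570 and 0.0342 times SMS. With the principal transcript length, the geometric mean of SAT1 to ODC1 was 0.112.

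OAZ1 encodes antizyme, which binds ornithine decarboxylase and sends it to the proteasome. Its reading frame ends early unless the ribosome slips forward by a base, a step favoured by polyamines, so its mRNA level does not give the amount of antizyme. The slip site is shown because the counts cannot see it; capitals mark the last codon before the early stop and the stop itself, read from GENCODE transcripts of OAZ1 on chromosome 19.
OAZ1 frameshift site: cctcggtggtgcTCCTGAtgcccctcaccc

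OAZ1 stood at 194, 248 and 209 CPM in replicates 1, 2 and 3, highest where ODC1 was lowest. AZIN1, the antizyme inhibitor gene, encodes a relative of ornithine decarboxylase without enzyme activity that binds antizyme in its place. It was the most even of the abundant genes, at 258, 249 and 265 CPM, with the highest library 1.06 times the lowest. The span of JSRP1 overlaps that of OAZ1, and AZIN1-AS1 that of AZIN1, on the other strand. Whether their reads were told apart where they overlap is unknown.

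The ratio of ODC1 to OAZ1 per kb was 1.56 in replicate 1, with an exact binomial 95% interval from 1.5 to 1.62. Replicate 2 gave 0.765, with bounds of 0.742 and 0.788, and replicate 3 gave 1.40, with bounds of 1.34 and 1.45. Its highest value was 2.04 times its lowest, a range that does not depend on gene length. Which of the 2 genes is higher does depend on it, since the merged exons of OAZ1 (3436 bases) include retained introns. The geometric mean ratio was 1.18 with merged exons, 0.443 with the principal transcripts and 0.678 with coding length. ODC1 to AZIN1 was 2.19, 1.42 and 2.06 in replicates 1, 2 and 3, with a geometric mean of 0.835 by coding length. AZIN1 to OAZ1 was 0.710, 0.537 and 0.676. ARG2, whose product supplies ornithine, was 0.0877, 0.213 and 0.0786 times ODC1. The direction of no ratio was tested, because an exact sign-flip test on 3 libraries cannot give a p below 0.25.

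**Figure D2:**
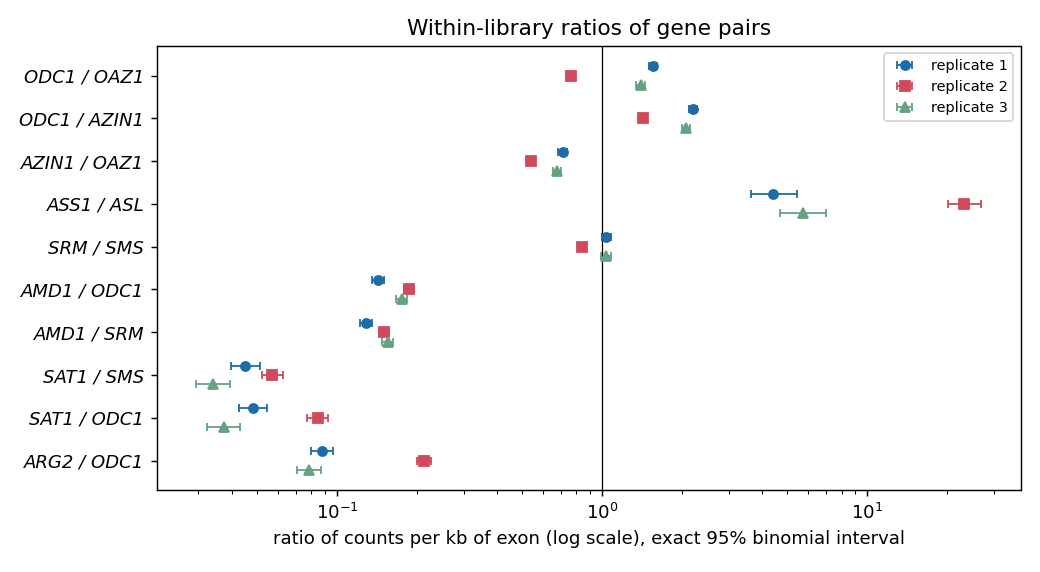
Within-library ratios of 10 gene pairs in counts per kb of exon, on a log axis, with exact 95% binomial intervals (counting error only). ASS1 to ASL in replicate 2 (23.3) lies far to the right of replicates 1 and 3, and ODC1 to OAZ1 crosses 1 between replicate 2 (0.765) and the others.

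By mean CPM per kb the order ran SMS, SRM, ODC1, OAZ1, AZIN1, ASS1, AMD1, ARG2, SAT1 and ASL. The ranges of SMS and SRM, ODC1 and OAZ1, ASS1 and AMD1, and AMD1 and ARG2 overlapped, and within the libraries neither gene of these pairs was the higher in all 3. The ranges of SRM and ODC1 overlapped too, but SRM lay above ODC1 in each of the 3 libraries; by coding length ODC1 lay above SRM in each. OAZ1 lay above AZIN1, AZIN1 above ASS1, ARG2 above SAT1 and SAT1 above ASL in all 3 libraries with no overlap. The ranges of ARG2 and SAT1 overlapped by coding length and by principal transcript length, with ARG2 above SAT1 in 2 libraries by the transcript length. Those of AZIN1 and ASS1 overlapped by principal transcript length, with AZIN1 above ASS1 in 2 libraries. By that length SRM lay above SMS, with overlap, and AMD1 above ARG2, without overlap, in all 3 libraries. OAZ1 lay above ODC1 in all 3 by coding length and by principal transcript length. By principal transcript length OAZ1 came first, at 189 ± 24 CPM per kb, and ASL stayed last at 2.27 ± 0.0719.

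A chi-square test of homogeneity asked whether each gene varied between libraries beyond counting error, with p-values adjusted by Benjamini-Hochberg over the 14612 detected genes. It called 9 of the 10 genes, all but ASL (adjusted p = 0.875), against 68.8% of all detected genes, so the count says little about these genes. Among the called genes ASS1 had a chi-square of 2429.6, ODC1 of 933, SRM of 423 and AZIN1 of 16.0, a statistic that grows with the count as well as with the spread. A highest library at least 1.5 times the lowest was found for 3 of the 10, ASS1, ARG2 and ODC1, against 14.1% of the 11744 genes. The median SD of log2 CPM was 0.28 for the 10 and 0.15 for the 11744.

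Replicate 2 was an extreme library for each of the 9 called genes. It was the highest for 4 (ASS1, ARG2, SAT1 and OAZ1) and the lowest for 5 (ODC1, AMD1, SRM, SMS and AZIN1). Over all detected genes, 26.8% were called with replicate 2 highest and 26% with replicate 2 lowest, and of all called genes 76.8% had replicate 2 as an extreme library. Without replicate 2 the test called 4 of the 10 (ASS1, AMD1, SAT1 and OAZ1) and 39.0% of detected genes, and the calls of ODC1 (adjusted p = 0.116), SRM (0.521), SMS (0.630), ARG2 (0.0855) and AZIN1 (0.243) were lost. Without replicate 3 the calls of SAT1 (adjusted p = 0.310) and AZIN1 (0.0598) were lost. The test then called 7 of the 10 and 51.1% of detected genes. The part of depth, culture or handling of replicate 2 in these differences was not tested.

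**Figure D3:**
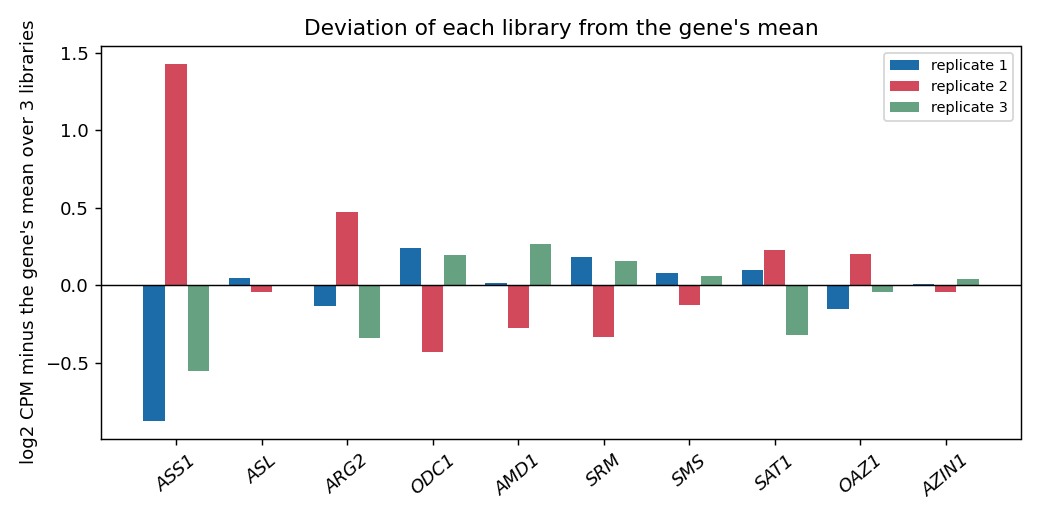
Log2 CPM of each gene in each library minus its mean over the 3 libraries. Replicate 2 bars point up for ASS1, ARG2, SAT1 and OAZ1 and down for the other 6, and the ASS1 bars are the longest.

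**Figure D4:**
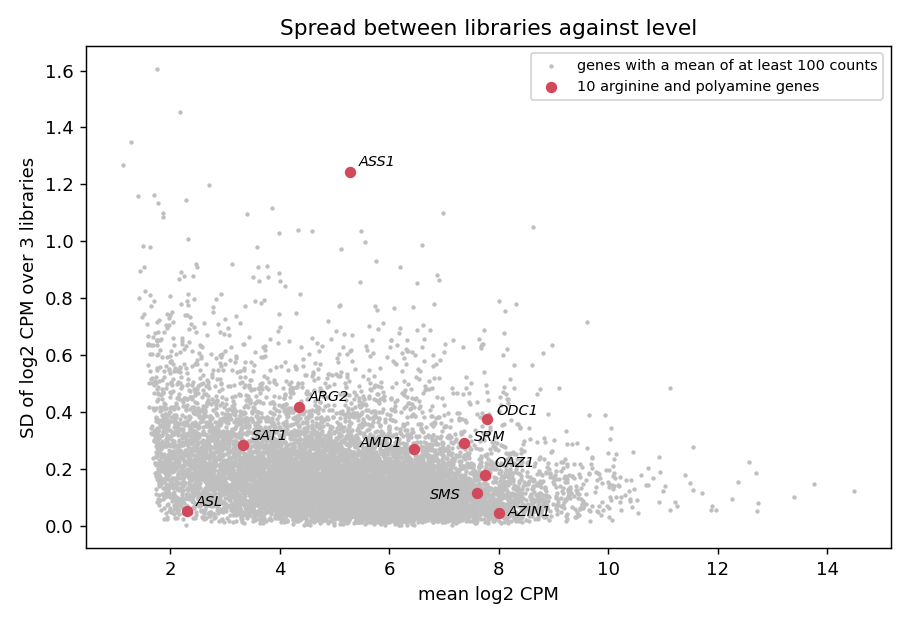
SD of log2 CPM over the 3 libraries against mean log2 CPM, for 11744 genes with a mean of at least 100 counts (grey) and the 10 arginine and polyamine genes (red). ASS1 (SD 1.24) lies at the top edge of the cloud at its level, and AZIN1 (0.045) and ASL (0.050) lie near the bottom.

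A wider set of 46 genes around these 10 gives their setting; 37 were detected, against the 53% of all genes given above, and 16 lay in the top 25% per kb. The homogeneity test called 27 of the 37, near its share of all detected genes. Their median was 9.91 CPM per kb. Replicate 2 was the highest library for some called genes, such as SLC7A1 and PYCR1, and the lowest for others, such as EIF5A and ALDH18A1.

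Arginine can enter through the cationic amino acid transporters SLC7A1 and SLC7A2, and both were abundant. SLC7A1 stood at 227, 380 and 309 CPM in replicates 1, 2 and 3, highest in replicate 2 as ASS1 was, with a range of 1.67 times. SLC7A2 was more even, at 257, 281 and 247 CPM. The mitochondrial aspartate/glutamate carrier SLC25A13 (41.1 ± 0.480 CPM per kb) and SLC7A1 (39.7 ± 9.92) were the highest of the 10 supply and urea cycle genes. The early urea cycle was sparse: CPS1, carbamoyl phosphate synthetase, was the lowest detected at 0.994 ± 0.287 CPM per kb. OTC, ornithine transcarbamylase, had 2, 4 and 0 counts, ARG1, the liver arginase, 13, 8 and 15, SLC7A3 8, 50 and 10, and SLC25A2 none. With the limit set at 3 counts, a gene at 0 could still have had 0.121 CPM in replicate 1, 0.0705 in replicate 2 or 0.125 in replicate 3.

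Among 10 genes of arginine use, 8 were detected. DDAH1, which breaks down methylated arginines, was highest at 97.9 ± 7.26 CPM per kb, followed by PRMT1, the main arginine methyltransferase gene (61.0 ± 1.47). NOS3, endothelial nitric oxide synthase, was the lowest detected at 1.53 ± 0.277. NOS1 (1, 3 and 0 counts) and AGMAT (0, 12 and 4) were not detected.

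In the ornithine and proline branch, PYCR1, a proline-forming reductase, led with 54.7 ± 15 CPM per kb. In CPM it was 136, 208 and 130, with replicate 2 the highest and 1.60 times the lowest. ALDH18A1, which makes the proline and ornithine precursor, stood at 25.1 ± 2.09 CPM per kb, the ornithine aminotransferase gene OAT at 6.61 ± 0.410 and PYCR3 at 0.828 ± 0.0866. PRODH, proline dehydrogenase, had no count.

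Of 11 further genes of polyamine control, breakdown and transport, 9 were detected. The lysosomal polyamine exporter gene ATP13A2 (22.5 ± 2.39 CPM per kb) and SAT2 (17.6 ± 0.598), a relative of SAT1, were highest. PAOX, the polyamine oxidase that follows SAT1, was lowest at 0.524 ± 0.0880. ATP13A4 (8, 9 and 4 counts) and SLC12A8 (5, 3 and 6) were not detected.

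Spermidine is the donor of hypusine, a modified lysine found in the translation factor that EIF5A encodes. EIF5A stood at 120.3 ± 15.3 CPM per kb, above 98.6% of detected genes, and its paralog EIF5A2 at 2.52 ± 0.425. The hypusine enzymes DHPS and DOHH stood at 26.2 ± 3.73 and 11.7 ± 1.39. The genes that recycle methylthioadenosine, the by-product of both aminopropyl transfers, were all detected, from APIP at 3.45 ± 0.132 to MRI1 at 9.91 ± 0.0333 and ENOPH1 at 43.7 ± 3.86. MTAP, the gene for the first step and often deleted in tumours, was present at 5.94 ± 0.254 CPM per kb.

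**Figure D5:**
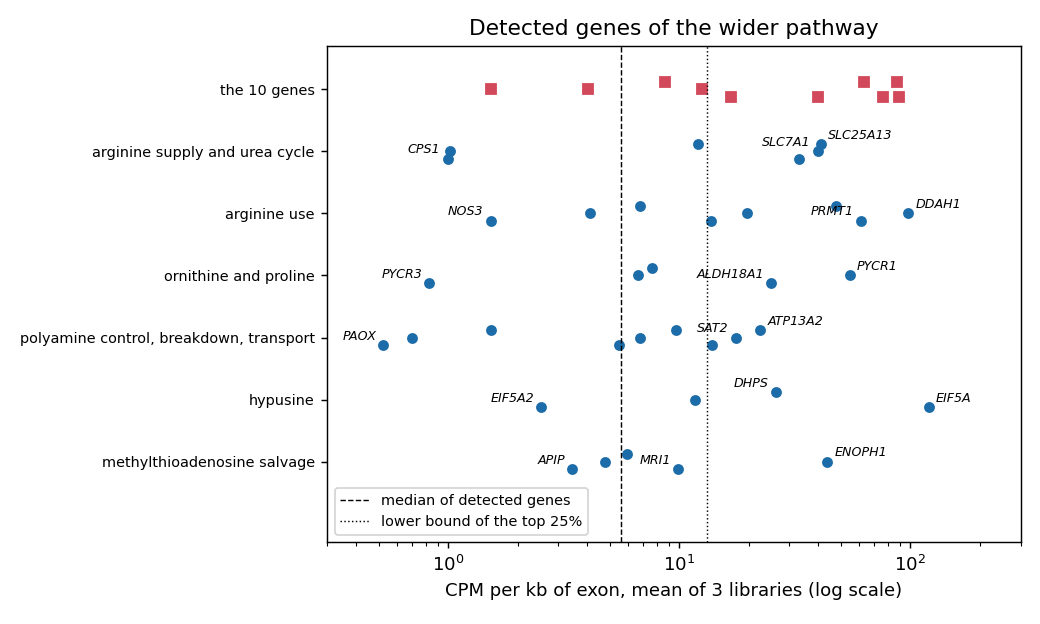
Mean CPM per kb of exon (log axis) of the 10 genes (red squares) and of the 37 detected genes of 6 wider lists (blue), with the median detected gene and the lower bound of the top 25% as lines. Names mark the 2 highest and the lowest gene of each list; EIF5A (120.3) is the rightmost point.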

How the data were processed

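The authors deposited raw read counts per gene symbol, 1 column for each of 3 H82R libraries, matched to the labels by title. Per the submitters' processing notes, STAR 2.6.1b and hg38 were used, in roles those notes as held here do not state. How reads were counted, with which annotation and strand setting, is not given in the sources used here. Of 27587 names, 13 had become dates (0.0665% to 0.0736% of counts) and were left out. CPM used TMM factors (0.994, 0.999 and 1.01) from edgeR 4.0.16 in R 4.3.3, and log2 CPM a prior count of 2. Exon lengths came from GENCODE release 29 on GRCh38, with 92.6% of detected genes matched, and promoters from RefSeq.

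The labels form 1 group, so edgeR's and DESeq2's tests between groups could not be made. Spread was compared with counting error by a chi-square homogeneity test (SciPy 1.17.1, threshold 0.05). It was tried on data simulated with counting error and planted changes only, so its behaviour under other spread was not tested. Ratios have exact (Clopper-Pearson) 95% binomial intervals. Intervals and floors (3 counts) cover counting error only, since without molecular identifiers reads are not independent. The genes, lists and pairs were chosen with earlier results of these data known. Named are the 10 genes and, of each wider list, the 2 highest, the lowest detected and every undetected gene, with all of the ornithine and hypusine lists except 1 gene that is not reported here; others, such as SLC7A2, MTAP and PTPRC, were named after their values were seen. Alternatives were DESeq2 1.42.0 size factors, plain totals, 2 other filters, each library left out, coding length, protein-coding genes only, a threshold of 0.01 and, chosen after seeing the data, principal transcript length.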

Additional observations from a re-analysis of the deposited data

How the results depend on the processing

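Within-library ratios do not depend on normalization or filters, and these left 9 genes called by the homogeneity test, and a threshold of 0.01 did too. The share of all tested genes called, 68.8% in the main setting, was 68.7% with DESeq2 size factors and 68.9% with plain totals. It was 73.7% with at least 1 CPM in every library and 47.4% with at least 1 count in any library. At the threshold of 0.01 it was 58.8%. Leaving out a library gave 4 to 9 called genes, and 39.0% to 52.8% of all detected genes, the lowest without replicate 2. The count in the top 25% was 6 or 7 under every alternative, but not the same genes: ASS1 was replaced by AMD1 without replicate 2 and with coding length. Leaving out a library moved the geometric mean of ASS1 to ASL between 5.03 and 11.5, the lowest without replicate 2. That of ODC1 to OAZ1 moved between 1.03 and 1.47.

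Gene length moved ratios through its own construction. The mean ratios given here are geometric means over the libraries. With coding length the mean ratio was 0.678 for ODC1 to OAZ1, 0.835 for ODC1 to AZIN1, 0.812 for AZIN1 to OAZ1, 0.539 for AMD1 to ODC1, 0.611 for AMD1 to SRM, 0.0960 for SAT1 to SMS and 0.0817 for SAT1 to ODC1. With principal transcript length it was 0.443 for ODC1 to OAZ1, 0.290 for AZIN1 to OAZ1, 1.23 for SRM to SMS, 0.305 for AMD1 to ODC1, 0.196 for AMD1 to SRM, 0.0887 for SAT1 to SMS and 0.112 for SAT1 to ODC1. With merged exons these were 1.18, 1.86, 0.637, 0.965, 0.167, 0.144, 0.0445 and 0.0534 for ODC1 to OAZ1, ODC1 to AZIN1, AZIN1 to OAZ1, SRM to SMS, AMD1 to ODC1, AMD1 to SRM, SAT1 to SMS and SAT1 to ODC1. No paired analysis was possible because the labels form 1 group. At 117 to 201 counts, ASL is the gene whose level counting error limits most.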
